A study of Caenorhabditis elegans with 10 samples.

Results

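The accessible chromatin around 2 genes of the Caenorhabditis elegans molt, nhr-25 and mlt-8, was described from the peak lists of early embryo, L3 larva and young adult. The members were all peaks of the 3 lists that lay within 25 kb of a region that the study had cloned in front of a reporter for each gene. These regions are chrX:13014304-13014628 (325 bp, near nhr-25) and chrII:574138-574430 (293 bp, near mlt-8), in the ce10 build. The windows held 70 of the 55893 peaks in the lists, 26 around the nhr-25 region and 44 around the mlt-8 region. The study's tested regions were chosen by their large differences in accessibility between stages of these same samples. Their values in each stage, and their differences between stages, are therefore given as a description, and no test was made on them.

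C. elegans replaces its cuticle at the end of each larval stage, when the hypodermis, the epithelium under the cuticle, makes a new one and the old one is shed. nhr-25 encodes a nuclear receptor of the family of fly Ftz-F1 and mammalian SF-1, acts in the hypodermis and is needed for molting and for the epidermal stem cells called seam cells. mlt-8 was named from the molting defect seen when it is knocked down. In ATAC-seq a transposase inserts sequencing adaptors into open DNA, so that insertions pile up where nucleosomes leave the sequence exposed. Such open sites can be promoters, enhancers or other bound sequences, and the assay does not say which.

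The animals were wild type N2 worms grown at 20 °C. Early embryos were taken from bleached adults, L3 larvae were collected 36 h and young adults 57 h after egg lay, with 3 replicates (A to C) per stage, and 10 ng of naked genomic DNA served as the input control. Whole animals were used, so a site open in a few cells and a site partly open in many cells cannot be told apart. The authors pooled the replicates of a stage before calling peaks, which left 1 list per stage with no spread between replicates: 27694 peaks in early embryo, 13040 in L3 and 15159 in young adult. The replicates were of unequal size in the pools of L3 and young adult, and the larger ones weigh more in those lists.

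In the study's reporter assay each region was placed before a minimal promoter driving nucleolar GFP. Both regions were reported to drive GFP in the hypodermis of the head or tail during development, with either orientation of the insert. The study adds that the mlt-8 region had earlier been proposed to be a promoter, and that promoters could also act in both directions. None of the flanking regions that the study tested gave such a pattern. Flanks were tested for only part of its candidate regions, and one of the mlt-8 region could not be identified with certainty here. The DNA carried by each reporter was amplified with the primers printed here without the cloning tails, because they identify the cloned pieces, which were larger than the listed intervals. They were not matched to a genome here. The capitals mark the 6 bases at the 3′ end of each primer, from which the copy starts.
nhr-25 tested region forward: tctacaaagggcgtTTTTCC
nhr-25 tested region reverse: ttgatcccttccacTGTTCC
mlt-8 tested region forward: ttgtctacgtacacttcaaacTTAAAA
mlt-8 tested region reverse: tcgtaaatcttcaatgaaatAAGAAA
A neighbouring stretch near nhr-25 was cloned as a negative control, with the primers below, also from chromosome X.
nhr-25 flanking control forward: gtgattttacggcgTTGGAG
nhr-25 flanking control reverse: ctgcaggatgggttGTTTTT

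Each peak came with a fold enrichment and a −log10 p from a Poisson model. Both values together fix the whole number of insertions within 75 bp of the summit and the background they were compared with. A whole number that met the deposited −log10 p within 0.005 was found for 99.97% of early embryo, 100.00% of L3 and 99.99% of young adult peaks, and for all 70 members. The lowest background in each list is the genome mean, which gave totals of 102580000 insertions for early embryo, 31280000 for L3 and 42750000 for young adult. Levels are therefore given as insertions at the summit per 1000000 in the list (CPM), with an exact Poisson 95% interval that covers counting error only. The median level was 3.89 in early embryo, 6.49 in L3 and 5.59 in young adult. Early embryo, the deepest list, held the most peaks and, by list totals, the weakest ones.

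The tested nhr-25 region was itself a peak of the L3 list and had no peak in early embryo or young adult. In L3 it reached 142 insertions at its summit, a level of 4.54 CPM (3.82 to 5.35). Its fold enrichment over the local background, 2.68, had rank 8131 and its level rank 10032 of the 13040 L3 peaks. The peak is thus among the weaker ones of its list. In the L3 list 10.9% of peaks had no counterpart in either other stage, where a counterpart is a peak whose overlap covers at least 50% of either peak, and 23.7% had none in early embryo and 27.3% none in young adult.

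For the stages without a peak at the nhr-25 region, a threshold was computed as the least level that would reach the lowest −log10 p of the list at a given background. The least levels that any deposited peak had were 2.02 CPM in early embryo, 2.46 in L3 and 2.18 in young adult. In young adult, 95 insertions (2.22 CPM) would have passed the threshold at the background of the nearest peaks. These lay 5.56 and 24.4 kb away, so the young adult background at the region itself is not known. In early embryo the least passing level was computed as 2.00 CPM at the genome mean and 3.32 at the raised background of the nearest peak, 1.72 kb away. By list totals, each of these levels lies under the lower bound of 3.82 for the L3 peak. The lists can also be scaled to an equal median over peaks with counterparts in all stages. The factors are then 1.31 for early embryo and 0.83 for L3, and the early embryo level of 3.32 would exceed the L3 level. At that background, an early embryo signal equal to L3 may thus not have been called. A site can also be missing because it was too narrow for a call or because the authors' filters on replicates, input DNA and problem regions removed it, and their part was not tested.

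The nhr-25 region stood apart from other L3 peaks. The next L3 peak toward lower coordinates, on the side where nhr-25 lies, was 4.69 kb away from summit to summit, and the next one toward higher coordinates was 24.48 kb away. By gene order in the RefSeq table (WBcel235, used for names only), nhr-25 lies between vwa-8, a gene for a von Willebrand factor A domain protein, and npr-10, a neuropeptide receptor gene. The study places the region past the 3′ ends of both nhr-25 and npr-10. Below, "before" means toward lower coordinates and "beyond" toward higher ones.

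The strongest early embryo peak of the window by fold, chrX:13008346-13008786, lay 5.92 kb before the tested region and was present in all stages. It had a level of 16.4 CPM (15.6 to 17.2) in early embryo. The L3 peak there, 782 bp wide, had 13.3 CPM (12.02 to 14.6). The young adult peak, 679 bp wide, had 6.43 CPM (5.70 to 7.24). By list totals the level was thus lower in young adult than in early embryo and L3, and the intervals of the 3 stages did not overlap. The young adult level was still above the median of its list, 5.59. L3 stood at 2.06 of young adult (1.77 to 2.41), or 1.17 as fold enrichment. L3 stood at 0.81 of early embryo (0.73 to 0.90), or 0.51 with equal medians over shared peaks. Young adult stood at 0.39 of early embryo (0.34 to 0.45), or 0.69 as fold enrichment. The peak was picked for its strength in early embryo, so its ratios to that stage are not set against other pairs.

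Next to this shared peak the L3 list held further peaks. One at chrX:13008830-13009136 had a level of 8.18 CPM (7.21 to 9.25) in L3 and 3.28 (2.76 to 3.86) in young adult (chrX:13008830-13009022), where it was the nearest peak before the tested region, with no counterpart in early embryo. The other, chrX:13009376-13009900, was found in L3 only, 525 bp wide, with 9.65 CPM (8.60 to 10.8). Its interval lay wholly above that of the tested region. At the backgrounds of the nearest peaks, 3.39 to 3.49 CPM would have passed here in early embryo and 2.22 in young adult. The run of L3 peaks from 13007929 to 13009900 thus spanned 1972 bp, while young adult had peaks from 13008142 to 13009022 only.

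Early embryo had its own sites in the same stretch. At 4.29 kb before the tested region, chrX:13009961-13010364 had 6.91 CPM (6.41 to 7.44) in early embryo only. A group of 3 early embryo peaks followed between 13011922 and 13012846, 2.38 to 1.72 kb before the tested region. Their levels were 4.95, 4.08 and 6.63 CPM, and none had a counterpart in L3 or young adult. Beyond the tested region, chrX:13017667-13017894 was again found in early embryo only, with 5.60 CPM (5.15 to 6.07) and a fold of 3.34. It was the only peak of the 3 lists between the tested region and the L3 and young adult peaks at 24.48 and 24.44 kb. The tested region, where L3 alone had a peak, thus lay between early embryo peaks on both sides. At the weakest of these early embryo sites, 4.08 CPM (3.69 to 4.49), the L3 threshold was 2.40 CPM at the background of the nearest L3 peak, the tested region 1.95 kb away, and 3.96 at that of the L3 peak 2.73 kb away. A like level in L3 may or may not have been called.

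Over the whole window, 8 of the 12 early embryo peaks of the nhr-25 window were found in that stage only, against 50.9% of the whole early embryo list. With each list limited to the length of the shortest, this fell to 3 of 7 by −log10 q and 3 of 6 by fold, against 37.2% and 36.7% of the whole list. As deposited, it was 2 of the 8 L3 peaks, against the 10.9% given above, and 1 of the 6 young adult peaks, against 17.3% of that list. At the shares of the whole lists these would have been 6.1, 0.9 and 1.0 peaks, and 1 of the 2 L3 peaks is the tested region itself, which was selected on such a difference. With equal list lengths L3 had 3 (by −log10 q) or 4 (by fold) such peaks of 8, against 21.2% and 21.5% of its list. Young adult then had 1 of 5 either way, against 24.1% and 23.8%. The 1 young adult peak, chrX:13005370-13005690, had 3.88 CPM (3.32 to 4.52), and the L3 threshold there was 2.40 CPM at the genome mean, 3.52 at the background of the nearest L3 peak and 4.00 at that of the next one. The remaining members were 2 sites near the lower end of the window that all stages shared, at 25.10 and 23.59 kb before the tested region in young adult, an early embryo and L3 site at 9.90 kb, 3 weak early embryo sites between 17.54 and 12.10 kb with 3.51 to 3.69 CPM, and the site beyond the tested region at 24.48 kb.

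**Figure D1:**
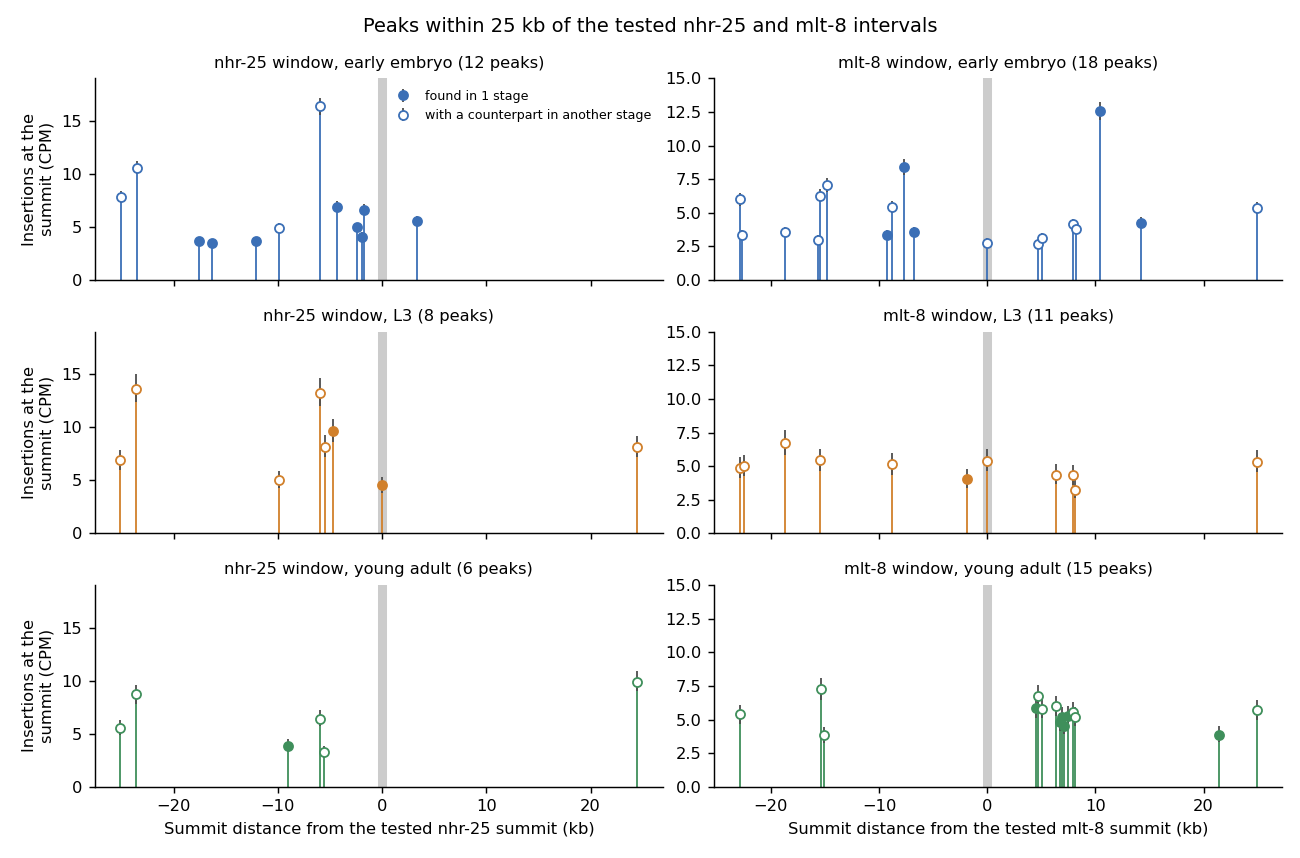
Peaks within 25 kb of the tested nhr-25 (left) and mlt-8 (right) intervals in early embryo, L3 and young adult. The x axis gives the summit's distance from the tested L3 summit (kb, grey band at 0) and the y axis insertions at the summit (CPM), with the 95% Poisson interval as a bar. Filled points were found in 1 stage. At the nhr-25 interval only L3 has a point, at 4.54 CPM. At the mlt-8 interval L3 stands at 5.40 and early embryo at 2.77, and the young adult points crowd beyond it.

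The strongest L3 and young adult peaks of the nhr-25 window by fold were not next to nhr-25. In L3 it was chrX:12990689-12991251, 23.60 kb before the tested region, with a fold of 7.27 and 13.7 CPM (12.4 to 15.0). The same site had 10.6 CPM (9.97 to 11.2) in early embryo and 8.70 (7.84 to 9.63) in young adult. L3 was thus highest by list totals, at 1.29 of early embryo (1.15 to 1.44), but fell to 0.81 of it when the lists were scaled to an equal median over shared peaks. In young adult the strongest was chrX:13038613-13039300, with a fold of 5.88 and 9.92 CPM (8.997 to 10.9). The L3 peak there had 8.15 CPM (7.18 to 9.22), and early embryo had none. At the background of the nearest early embryo peak, 9.61 kb away, 2.31 CPM would have passed, but the background at the site itself is not known.

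The tested mlt-8 region was a peak in L3 and in early embryo, and had none in young adult. In L3 it had 169 insertions at its summit, 5.40 CPM (4.62 to 6.28). In early embryo a narrower peak of 187 bp, chrII:574194-574380, lay within it with 284 insertions, 2.77 CPM (2.46 to 3.11). The summits were 11 bp apart, near the median of 12 bp over all 9956 L3 peaks with an early embryo counterpart. The ratio of L3 to early embryo was 1.95 (counting interval 1.60 to 2.37), and the region had been selected on its difference between stages.

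This ratio has to be read against the lists as a whole, because L3 peaks were higher than their early embryo counterparts in 76.7% of the pairs. The median ratio over all pairs was 1.37, and 26.4% of pairs had a larger ratio than the mlt-8 region. After scaling to an equal median over shared peaks, the ratio at the mlt-8 region was 1.23 (1.01 to 1.49). Taken as fold enrichment, which was 3.20 in L3 and 1.66 in early embryo, it was 1.93. The early embryo peak was weak: it ranked 24414 by fold and 25893 by level of 27694. It dropped out when each list was limited to the size of the shortest, which left the region as a peak of L3 only.

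In young adult, 2.18 CPM would have passed at the mlt-8 region if the background was the genome mean, and 3.18 if it was that of the nearest peak, 4.55 kb away. Both lie under the lower bound of 4.62 in L3. The early embryo level of 2.77 lies between them, so a young adult signal of the early embryo size may or may not have been called.

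By gene order, mlt-8 lies between W08F4.5 and W08F4.7, which is followed by cdc-37, the gene of a co-chaperone that brings protein kinases to Hsp90. The study places the tested region at the 3′ end of W08F4.7 and upstream of mlt-8, and putatively assigned it to mlt-8 from the hypodermal reporter pattern. On the side of mlt-8, 1.86 kb before the tested summit, L3 had a further peak, chrII:572304-572563, that was found in that stage only. It had 126 insertions at its summit, 4.03 CPM (3.36 to 4.80), and a fold of 2.39. At the backgrounds of the nearest peaks, the least passing level there was 2.00 CPM in early embryo and at most 3.18 in young adult, both under the lower bound in L3. This was 1 of the 11 L3 peaks of the window without a counterpart in another stage, where 10.9% of the whole list would be 1.2 peaks. With equal list lengths, by −log10 q or by fold, it was 3 of 11, against 21.2% and 21.5% of the list.

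In the 6515 bp before the tested region only L3 had a peak. The nearest early embryo peak on that side, chrII:567426-567622, lay 6.76 kb before the tested summit with 3.59 CPM (3.23 to 3.97), and the nearest young adult peak, chrII:559070-559367, 15.05 kb before it with 3.84 (3.27 to 4.47). Both L3 peaks near mlt-8, at 4.03 and 5.40 CPM, thus stood in a stretch with no young adult peak, which reached from that site to 4.55 kb beyond the tested summit. Both were also below the L3 median of 6.49.

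**Figure D2:**
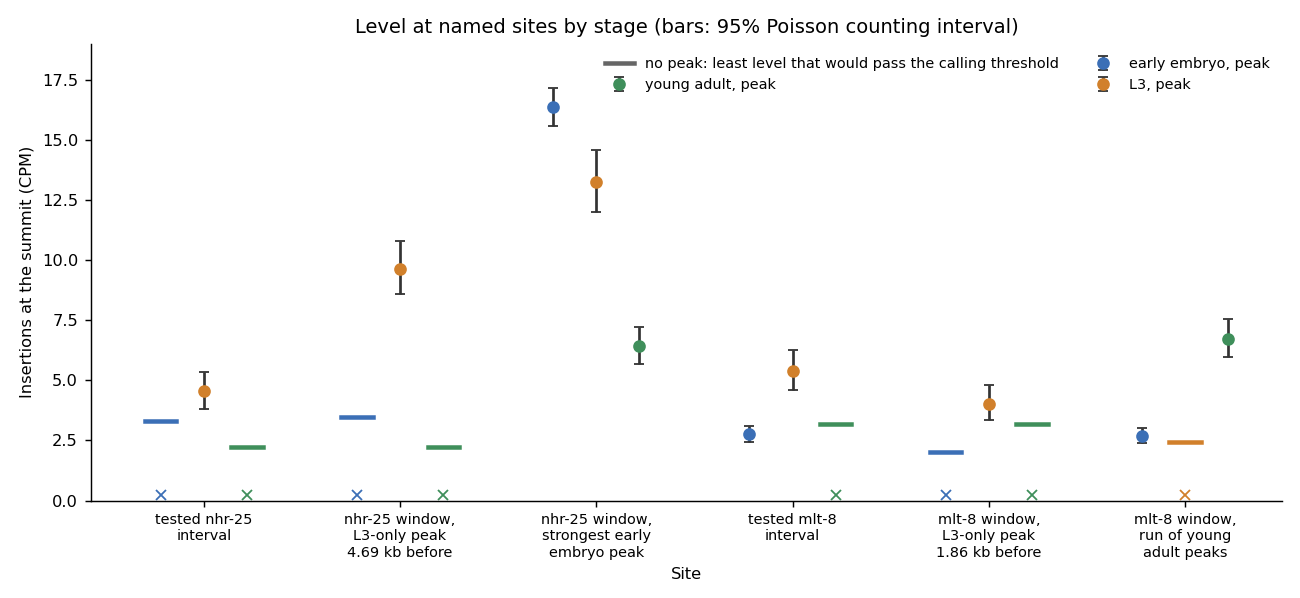
Insertions at the summit (CPM) (y axis) at 6 sites of both windows (x axis) by stage, with bars for the 95% Poisson counting interval. A cross marks a stage with no peak, and the thick line above it the least level that would have passed the calling threshold at the background of the nearest peaks. By list totals, as drawn, the L3 point and its interval at both tested intervals stand above the lines of the stages without a peak. With equal medians the early embryo line at the nhr-25 interval would lie above the L3 point. At the strongest early embryo peak of the nhr-25 window the young adult point is the lowest.

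Early embryo had 18 peaks in the mlt-8 window, 5 of them in that stage only, or 27.8%, which is below the 50.9% of its list. With equal list lengths this was 2 of 7 by −log10 q and 3 of 8 by fold, against 37.2% and 36.7%. The strongest by fold was among these 5. It was chrII:566458-566701, 7.71 kb before the tested summit, with a fold of 5.02 and 8.40 CPM (7.85 to 8.98). The highest level was at chrII:584506-584988, 10.43 kb beyond it, with 12.5 CPM (11.9 to 13.3), also in early embryo only. At the backgrounds of the nearest peaks, 2.40 CPM would have passed at these sites in L3, and at most 3.18 and 3.09 in young adult. The other early embryo sites of this kind had 3.31, 3.59 and 4.25 CPM.

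The strongest L3 peak of the mlt-8 window, chrII:555470-555721, had 6.75 CPM (5.87 to 7.72) and a fold of 3.99. Early embryo had 3.58 CPM (3.22 to 3.96) there, with the summits 2 bp apart, and young adult no peak. The ratio of L3 to early embryo was 1.89 (1.58 to 2.24), about that of the tested region, which lies 18.69 kb beyond it. The strongest young adult peak, chrII:558566-559069, was shared by all stages, with 7.28 CPM (6.49 to 8.13) against 5.43 (4.65 to 6.32) in L3 and, for the stronger of its 2 early embryo counterparts, 6.29 (5.81 to 6.79).

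Young adult differed from the other stages by a dense run of peaks beyond the mlt-8 region. From chrII:578700 to 582596, a stretch of 3897 bp that starts 4.55 kb from the tested summit, its list held 10 of its 15 peaks in the window, at most 1.5 kb apart. Their levels ran from 4.52 to 6.74 CPM and their folds from 1.81 to 2.75. Of these 10 peaks, 5 had no counterpart in either other stage, among them the nearest to the tested region, chrII:578700-578929, with 5.85 CPM (5.15 to 6.62) and a fold of 2.30. L3 had 3 peaks in the stretch, with 4.38, 4.32 and 3.26 CPM, and early embryo 4, with 2.70, 3.13, 4.15 and 3.80. The nearest to the tested region among these were chrII:580587-580805 in L3, at 6.40 kb, and chrII:578868-579120 in early embryo, at 4.72 kb. Over the whole window 6 of the 15 young adult peaks were found in that stage only, or 40.0%, against 17.3% of the list, which would have been 2.6 peaks. With equal list lengths, by −log10 q or by fold, it was 6 of 13, against 24.1% and 23.8% of the list.

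Many of these young adult peaks adjoined each other, since the authors split broad peaks between their summits, so they are not 10 separate regions. With adjoining peaks joined, young adult had 10 peaks in the window, 4 of them in that stage only. The share of the whole young adult list was not computed with peaks joined. Whether 4 of 10 is high for joined peaks is therefore not known. Among the 303 stretches of the same length along chromosome II, 5.94% held 15 or more young adult peaks as deposited, and the median stretch held 8. Early embryo and L3, with 18 and 11 peaks, were matched or exceeded by 36.0% and 20.8% of stretches. For the nhr-25 window, the shares of 352 stretches of X with as many peaks or more were 78.4%, 52.0% and 70.7% for early embryo, L3 and young adult, so that window was not dense in any stage.

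The background behind each peak gives a coarser measure. Where it exceeded the genome mean it was a whole number of insertions per 10 kb around the summit, within 0.1, for 99.97% to 99.99% of such peaks in each list. Around the strongest early embryo peak of the nhr-25 window, the 10 kb held 1.83 times the genome mean in early embryo, 1.82 times in L3 and 1.03 times in young adult. Each value is relative to the genome mean of its own list, so it compares stages by list totals only. It was not computed with equal medians, and it is floored at 1.00. At the tested nhr-25 region the L3 value was 1.00, and the early embryo peak 1.72 kb before it still had 1.73. Neighbouring summits share most of their 10 kb, so these values are not independent of each other or of the peaks inside them.

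The mlt-8 window had another order. Around the run of young adult peaks the 10 kb held 1.46 to 1.53 times the genome mean in young adult and at most 1.02 times in L3. Early embryo had values up to 1.33 there and 1.55 around its own strong peak at 10.43 kb. At the tested mlt-8 region both L3 and early embryo were at the floor of 1.00. Over the whole lists, 54.3% of early embryo, 63.0% of L3 and 58.5% of young adult peaks outside the mitochondrial genome were above the genome mean.

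**Figure D3:**
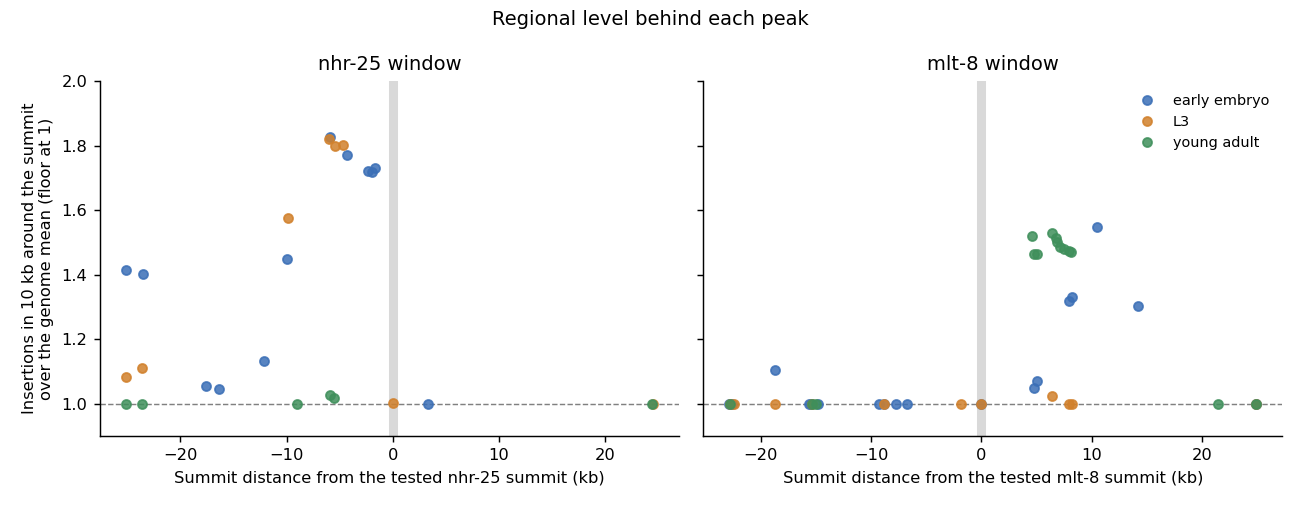
Insertions in the 10 kb around each summit over the genome mean (y axis, floored at 1) against the summit's distance from the tested L3 summit (x axis, kb) for all peaks of both windows, coloured by stage. In the nhr-25 window early embryo and L3 rise together to 1.83 and 1.82 before the tested interval while young adult stays at 1.03 or below. In the mlt-8 window young adult reaches 1.53 beyond the tested interval.

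The 26 peaks of the nhr-25 window formed 17 sites, of which 3 were in all stages, and the 44 peaks of the mlt-8 window formed 24 sites, of which 5 were. Of the overlaps between lists, the 38 counterparts covered 67.5% or more of the shorter peak and the 8 other overlaps 44.9% or less, so no member sat at the 50% limit. The peaks just inside the window ended 22.3 to 24.8 kb from the tested regions (early embryo near nhr-25, higher side, 3.04 kb), and those just outside began at 26.9 kb or more, with folds of 2.88 to 5.88 inside and 1.68 to 8.51 outside.

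The ratios between lists were then compared over all members that had a counterpart. Their intervals cover counting error between 1 list per stage, so they compare these lists and not the stages beyond them. The nhr-25 window held 5 pairs of L3 and young adult peaks, and in 4 of them L3 was higher with an interval that excluded 1, or in 3 of them with equal medians. The ratio was 2.50 (2.03 to 3.09) at 5.49 kb before the tested region, 2.06 (1.77 to 2.41) at 5.97 kb, 1.57 (1.36 to 1.81) at 23.60 kb and 1.24 at 25.11 kb, with a lower bound of 1.03, while the pair at 24.48 kb beyond it had 0.82 (0.70 to 0.96). With equal medians the pair at 25.11 kb had 1.11 (0.92 to 1.34). Over all 9485 such pairs, taken from all chromosomes, the median ratio was 1.12. A larger ratio than at the site at 5.49 kb was seen in 0.337% of pairs, and than at the site at 5.97 kb in 1.68%. These 2 sites had the largest ratios of the window, and they were not set against pairs of chromosome X alone. The young adult peak of the site at 5.49 kb, with 3.28 CPM, was near the low end of its list, at rank 14534 of 15159 by level. Taken as fold enrichment the ratios at these 2 sites were smaller, 1.42 and 1.17. The regional background was up to 1.82 times the genome mean in L3 and at most 1.03 times in young adult. In the mlt-8 window 4 of the 7 pairs had a ratio below 1 with an interval that excluded 1, none the reverse, and the median was 0.78. The lowest, 0.63 (0.49 to 0.80), lay in the run of young adult peaks, at 8.16 kb. With equal medians these were 4 of 7 again, with a median of 0.70. As fold enrichment 2 of these 4 pairs turned above 1, from 0.73 to 1.09 at 6.40 kb and from 0.78 to 1.14 at 7.90 kb, and the lowest became 0.92. All 3 of these lay in the run, where the background was raised in young adult, and only the pair at 15.41 kb before the tested summit stayed at 0.75.

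Between L3 and early embryo the direction depended on the scaling. By list totals the members spread around equality. In the nhr-25 window the 4 pairs had ratios from 0.81 to 1.29, and in the mlt-8 window the 9 pairs from 0.81 to 1.95, with medians of 0.95 and 1.00 against 1.37 over all pairs. With equal medians 11 of these 13 pairs lay below 1, with ratios from 0.51 to 0.81 near nhr-25 and from 0.51 to 1.23 near mlt-8 and medians of 0.59 and 0.63. As fold the 13 pairs ran from 0.80 to 2.06, with 7 above 1. The tested mlt-8 region, selected for its difference, had 1.95. Young adult exceeded early embryo most at the run beyond mlt-8, by 2.49 (2.11 to 2.95) at 4.74 kb and 1.86 (1.57 to 2.20) at 5.06 kb, and these stayed above 1 with equal medians (1.76 and 1.31) and as fold (1.78 and 1.36).

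**Figure D4:**
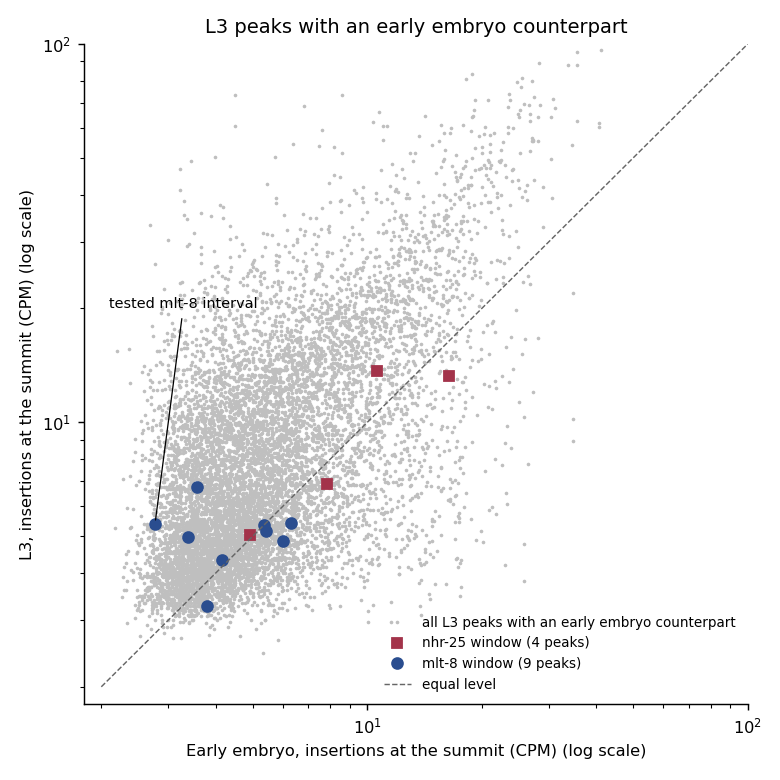
Insertions at the summit (CPM) in L3 (y axis, log scale) against the strongest early embryo counterpart (x axis, log scale) for all L3 peaks that have one, in grey, with the 4 pairs of the nhr-25 window and the 9 of the mlt-8 window marked. The dashed line is equal level. The tested mlt-8 region, at 2.77 and 5.40, lies above the line, and most other members lie near or below it. With equal medians 11 of the 13 ratios were below 1.

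Among the study's other tested regions, those near gei-13 and swip-10 were also listed as more accessible in L3, and gei-13 shared the hypodermal reporter pattern. By the study's account the gei-13 region, like that of mlt-8, had earlier been proposed to be a promoter. The gei-13 region had 6.14 CPM (5.30 to 7.07) in L3 and 3.31 (2.97 to 3.69) in early embryo, and the strongest peak of the swip-10 region 10.97 (9.84 to 12.2) and 3.92 (3.55 to 4.32). Neither had a peak in young adult, like the mlt-8 and nhr-25 regions. The nhr-25 region was the only one of the 4 with no early embryo peak and had the lowest L3 level. The early embryo threshold at the nhr-25 region was 2.00 CPM at the genome mean and 3.32 at the background of the nearest peak. An early embryo signal of the size at mlt-8 (2.77) or gei-13 (3.31) may thus or may not have been called there.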

How the data were processed

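ATAC-seq was measured in early embryos, L3 larvae and young adults, 3 replicates each, with 1 input sample. The authors aligned reads with Bowtie2 2.1.0 to ce10, kept a mapping quality of at least 30, removed duplicates with Picard and called peaks with MACS 2.1 at q 0.05 on pooled insertions (extension 150 bp, genome size 90000000, no control), then split peaks between summits, kept consensus peaks and removed those that overlapped input peaks. The study's code for all stages pooled kept peaks covered over 50% by peaks of each random split of the insertions. The paper also describes peak calls on single replicates and a preference for peaks that recurred between replicates. The exact rule behind the lists of single stages was not found in the sources used here. The deposited lists give a display score (not used), a fold ratio over local background, −log10 p and −log10 q per peak, and the summit.

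Insertion numbers and backgrounds were solved from the fold (pseudocount 1) and −log10 p. Totals were the genome background times 90000000 over 150 bp. The solution was tested on simulated data. Poisson and binomial intervals (95%) came from scipy 1.17.1. Level ratios used the stronger counterpart. Peaks named in full were the tested intervals, the strongest by fold in each list and window, those found in 1 stage near the genes and the nearest on each side. Calling thresholds used each list's lowest −log10 p. The members and lists were chosen with earlier results of these data known. Ratio intervals compare 1 list per stage, so no test over replicates was made. Alternatives were the window, the q limit, equal list lengths, joined peaks, the overlap rule and the scaling. Primers came from the study's supplement. No ce10 genome or annotation was used, so motifs and gene features were not analysed here.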

Additional observations from a re-analysis of the deposited data

How the results depend on the processing

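The peak at the tested nhr-25 region remained in L3 only under all 7 alternatives that bear on it. None of them could have changed this. Its −log10 q was 22.7, L3 was the shortest list, and the nearest early embryo or young adult peak ended 1457 bp away. The tested mlt-8 region was in 2 stages, and in 1 (L3) with equal list lengths, by −log10 q or by fold. With equal list lengths by −log10 q, early embryo had 7 peaks in the nhr-25 window and 7 in the mlt-8 window, of which 3 and 2 were in that stage only, and L3 had 3 such peaks in the mlt-8 window. By fold, early embryo had 6 and 8 peaks, with 3 and 3 in that stage only, and L3 had 4 and 3 such peaks. With a window of 10 kb, early embryo, L3 and young adult had 7, 5 and 3 peaks around nhr-25, and early embryo and L3 had 9 and 6 around mlt-8. With 50 kb, early embryo and young adult had 30 and 11 around nhr-25, and the 3 stages 41, 20 and 23 around mlt-8. Fewer peaks or a wider stretch make these changes by construction. The limits on −log10 q, joined peaks and overlap rules left each count within 1.5 times. Scaled to an equal median over shared peaks, the ratio of L3 to early embryo was 1.23 at the mlt-8 region and 0.51 at the strongest early embryo peak of the nhr-25 window, where young adult to early embryo was 0.28. Taken as fold, the latter ratio was 0.69 and that of L3 to young adult 1.17. No ratio turned its direction among these 4, while over all pairs of both windows 11 of 13 ratios of L3 to early embryo were below 1 with equal medians, against 6 by list totals. No paired analysis was possible because the replicates A to C were pooled in each list. By list totals, the least level of any deposited peak was 2.46 CPM in L3 and 2.18 in young adult, against 2.02 in early embryo, the deepest list. This order depends on the scaling. With equal medians (factors 0.83, 0.92 and 1.31) early embryo would have the highest least level.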
